A study of Rattus norvegicus with 9 samples.

Results

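In cultures labelled cardiac fibroblasts (CFs), 143 named genes of the untreated blank group and of cells given vericiguat and AngII were compared, each as a share of its library. They are the named part of 839 genes kept from the 22512 rows of the deposited RNA-seq table, and the other 696 kept genes carry only a LOC number. The 13 rows starting KEF51 and the row ADORA1-2 were left out, each library was rescaled to a sum of 1000000, and a gene was kept where at least 2 libraries of each group had a deposited FPKM of 1 or more. FPKM is the number of fragments on a gene divided by its length and by the mapped fragments of its library, so the rescaled value, called the relative level here, is a share of the summed FPKM, in parts per 1000000 (ppm).

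The study asked which genes accompany the action of vericiguat, a drug that activates soluble guanylate cyclase and so raises cGMP, on CFs stimulated with the peptide hormone angiotensin II (AngII). The blank group received neither agent, the treatment group received vericiguat at 1.0 µM for 24 h and then AngII at 0.1 µM for 72 h, and a further group received AngII alone at 0.1 µM for 72 h, with 3 libraries in each, according to the labels. The methods give the opposite order, AngII and then vericiguat, for the migration assay, and no order for the sequenced cells. The cells came from hearts of newborn rats, were separated by how quickly they attach to plastic and were used at an early passage, and the sources used here give no check of the sequenced cultures for other heart cells. Neither the labels nor the methods say that the 3 libraries of a group are separate cultures, so the p-values below measure the spread among these libraries, which may be technical.

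Cardiac fibroblasts make and remodel the collagen-rich matrix of the heart and turn into contractile myofibroblasts when activated. Cardiomyocytes are filled with sarcomeres, the contractile units built of myosin, actin and tropomyosin, and with mitochondria that supply their ATP by oxidative phosphorylation. Fibroblasts kept in culture or stressed also release chemokines, small proteins that attract leukocytes.

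The labels call the organism rat, while the submitters' processing notes name OryCun2.0, an assembly of the rabbit genome. Of the 143 kept names, 125 equal a rat gene symbol when case is ignored, and 0 of the 696 LOC numbers is a rat gene ID in the GRCr8 gene table. Which species the reads came from was not tested. The table holds no counts, so the depth of each library is unknown. Before rescaling, the summed FPKM without the rows left out was 12476, 3615 and 7739 in the blank libraries and 353266, 346248 and 313103 in the treated libraries, and the KEF51 rows held from 97.6% to 97.9% of all FPKM in the blank group and from 45.3% to 52.3% in the treatment group. A single row, LOC100353654, made up 12.5%, 50.2% and 21.7% of the rescaled sum in the blank libraries and at most 0.336% in the treated ones. The relative levels of all other genes in the blank group are shares of a sum that includes this row.

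The blank libraries were less alike than the treated ones, and the third lay between the others. On relative levels it was strictly between the first and the second for 563 of the 839 kept genes (67.1%), and each treated library lay between the other two for 26.0% to 38.7% of them. In the deposited FPKM the number was 803 (95.7%), where the summed FPKM of the third blank library itself lies between those of the others. On relative levels the second blank library was the lowest of its group for 705 kept genes, and 35 kept genes were listed at 0 in it. Across the kept genes, which are not independent replicates, Pearson's r of log2 relative levels was 0.645 between the first and second blank library, 0.966 between the first and the third, and from 0.985 to 0.988 among the treated libraries. The median SD of a gene over 3 libraries was 0.66 on the log2 scale in the blank group and 0.16 in the treatment group. The cause of this was not tested, and the counts below are given with and without the second or the third blank library. A fit without the second leaves the first and the third, which were close to each other (r = 0.966). Whether the third is independent of the others was not tested. A small p from such a fit, as for PLN, MYH11 and HP below, is therefore not strong evidence.

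**Figure D1:**
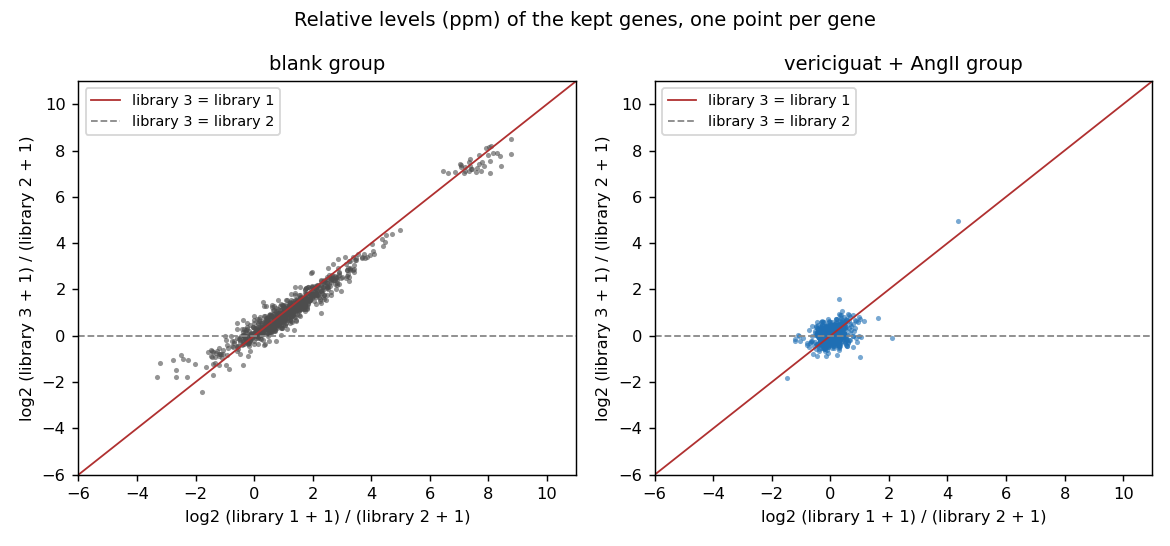
Each point is 1 of the 839 kept genes; the x axis is the log2 ratio of library 1 to library 2 and the y axis that of library 3 to library 2, for the blank group (left) and the treatment group (right), each on relative level + 1. Blank points form a narrow band along the line where library 3 equals library 1, with r = 0.966 between those libraries, and stretch far from 0, while treated points gather around 0.

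The minimum on FPKM decided who could be a member, and it acted almost wholly through the blank group. Of the 22498 rows left, 11365 passed it in the treatment group and 844 in the blank group, and 10526 failed in the blank group alone. Only 5 rows failed in the treatment group alone, among them IL6 and SAA3, an acute-phase protein gene, and SELP, an adhesion receptor of endothelium and platelets. IL6, which codes for an inflammatory cytokine, had a deposited FPKM of 4.197, 0 and 2.92 in blank and of 0.115, 0 and 0 in treatment. Genes close to 0 in untreated cells are therefore not described as members, however high they were after treatment. An FPKM of 1 was also a larger share of the small blank sums than of the treated sums. A kept gene thus needed a sizeable share in blank but could have a very low share in treatment. By the second-highest FPKM of the 3 blank libraries, TGFB1 and KARS1 (both 1.01) were the named genes just inside the minimum, and MYC (0.996) and PALM2AKAP2 (0.967) those just outside.

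Relative to the rest of their libraries, 297 of the 839 kept genes differed between the groups (35.4%), 119 higher in the treatment group (14.2%) and 178 lower (21.2%). Calls needed a log2 difference of 1 or more in size together with an adjusted p under 0.05 by limma, where p-values were adjusted over the kept genes by the Benjamini-Hochberg method. Among the named genes, 36 were higher (25.2%), 21 were lower (14.7%) and 86 were not called. The groups did not overlap for 211 kept genes that were higher (25.1% of all kept genes) and 240 that were lower (28.6%), and among the named genes for 55 and 27. The median log2 difference was -0.14 over all kept genes, ranging from -9.85 to 4.95, and 0.27 over the named genes. For a single gene, exact permutation of the 6 libraries has 0.1 as its smallest two-sided p, so no permutation p is given.

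The split between higher and lower depended on how the libraries were scaled. With LOC100353654 also left out before rescaling, a choice made after the values were seen, the median moved to -0.64 and the named calls to 21 higher and 39 lower (79 and 299 over all kept genes). Rescaled over the kept genes only, the median was 0.31 and the named calls 48 higher and 11 lower (160 and 110 over all kept genes). Without any rescaling the median was 4.57, with 139 named genes higher and 1 lower (815 and 4 over all kept genes). The minimum moved the split too, with 829 higher and 285 lower (median 0.97) when it was set on the relative level and 5651 higher and 479 lower with none. All directions below are therefore relative to the other genes of a library and not amounts per cell. In bulk samples, fewer cells of a type and less RNA of that type per cell cannot be told apart.

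Of the 36 named genes called higher, 27 were called without the third blank library and 31 without the second. Of the 21 called lower, 11 were called without the third and 21 without the second, and no direction changed. The calls that held under 4 other scalings and also with each of the 6 libraries left out in turn numbered 17 higher and 10 lower. The 17 were MYH7, ANKRD1, CRYAB, ENO3, ALDOA, LPL, IDH3G, ATP5PO, ATP5F1E, ATP5MJ, UQCRQ, COX4I1, EEF1A1, EEF1A2, RPL5, CAV1 and HINT1. The 10 were GRO-A, CCL2, S100A9, CASTOR1, DEPP1, APOD, C1H11orf96, FTL, THBD and GPX3. The 4 scalings were median centring, quantile normalization, rescaling over the kept genes and leaving out LOC100353654.

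**Figure D2:**
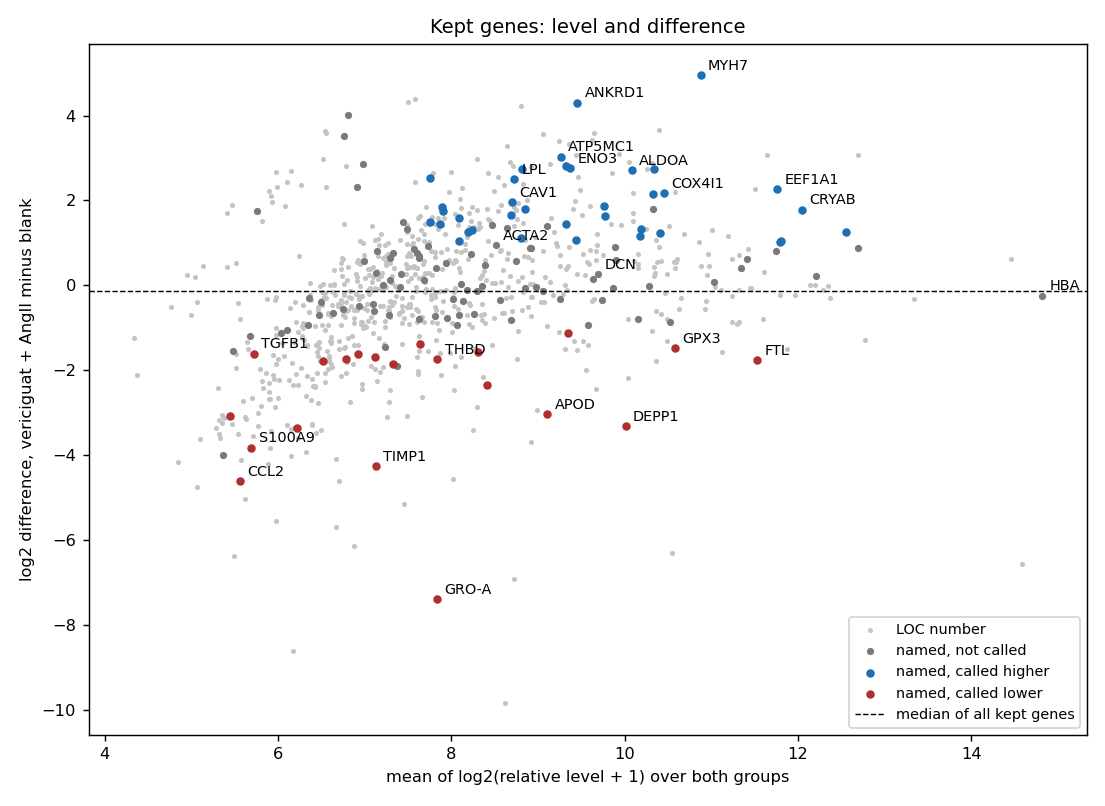
Each point is a kept gene, with its mean log2(relative level + 1) over both groups on the x axis and its log2 difference, vericiguat + AngII minus blank, on the y axis; blue and red mark the 36 and 21 named genes called, and the dashed line is the median of all kept genes (-0.14). MYH7 and ANKRD1 lie highest among the named genes and GRO-A lowest, at -7.39.

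Genes of the cardiac sarcomere had the highest median difference of the lists with a kept gene. Of a list of 31 such genes, 6 were listed by symbol and 4 were kept, and all 4 (MYH7, ANKRD1, DES and TPM1) were higher in the treatment group, with a median log2 difference of 3.05 against -0.14 for all kept genes. Of all kept genes 14.2% were called higher and 21.2% lower, and of the named genes 25.2% and 14.7%. Each list count here and below stands beside these shares. MYH7, the slow myosin heavy chain of the heart ventricle, had relative levels of 318.5, 383 and 317 ppm in the blank libraries and 12303, 10528 and 8834 in the treated libraries. Every treated library was far above every blank library, and the blank values were close to each other. The log2 difference of 4.95 (standard error 0.20, adjusted p = 0.000118 from limma) was the highest of all 839 kept genes and corresponds to a 30.9-fold higher share. By mean level in the treatment group MYH7 ranked 4 of the rows left.

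ANKRD1, a stress-responsive ankyrin repeat protein that binds the titin filament of the sarcomere, stood at 261, 95.7 and 154 ppm in the blank group and at 2921, 3143 and 3292 in the treatment group. The groups were well separated, and the log2 difference was 4.30 (standard error 0.38, adjusted p = 0.000498 from limma). DES codes for desmin, the intermediate filament of muscle cells, which smooth muscle makes as well. Its levels were 330.5, 149 and 301 ppm in blank and 1367, 685 and 678 in treatment, a log2 difference of 1.80 (adjusted p = 0.0183 from limma). TPM1 codes for the tropomyosin of the thin filament and is also used outside striated muscle. It stood at 549, 212 and 492 ppm in blank and at 1406, 1001 and 829 in treatment, a log2 difference of 1.45 (adjusted p = 0.0371 from limma). The TPM1 groups lay closest of the 4, and without the third blank library its adjusted p from limma was 0.0661.

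Taken per library, the summed level of the 6 listed sarcomere genes was 1479, 854 and 1276 ppm in the blank group and 19552, 16521 and 14584 in the treatment group. Reads were thus assigned to sarcomere genes in the blank libraries too, with MYH7 at a deposited FPKM of 3.97, 1.38 and 2.45. TPM1 and DES, which are not limited to striated muscle, are part of this sum. Which cells these reads came from was not tested. The other listed genes did not reach the minimum in the blank group. MYH6, the fast cardiac myosin, stood at 16.1, 4.43 and 6.46 ppm in blank and at 1363, 947 and 726 in treatment. TTN, the gene of the giant filament titin, stood at 3.53, 10.2 and 4.91 and at 190, 217 and 225. No kept gene belonged to the skeletal muscle list, of which 12 of 27 genes were listed and 10 stood at 0 in every blank library. Its summed level was at most 23.3 ppm in the treated libraries.

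**Figure D3:**
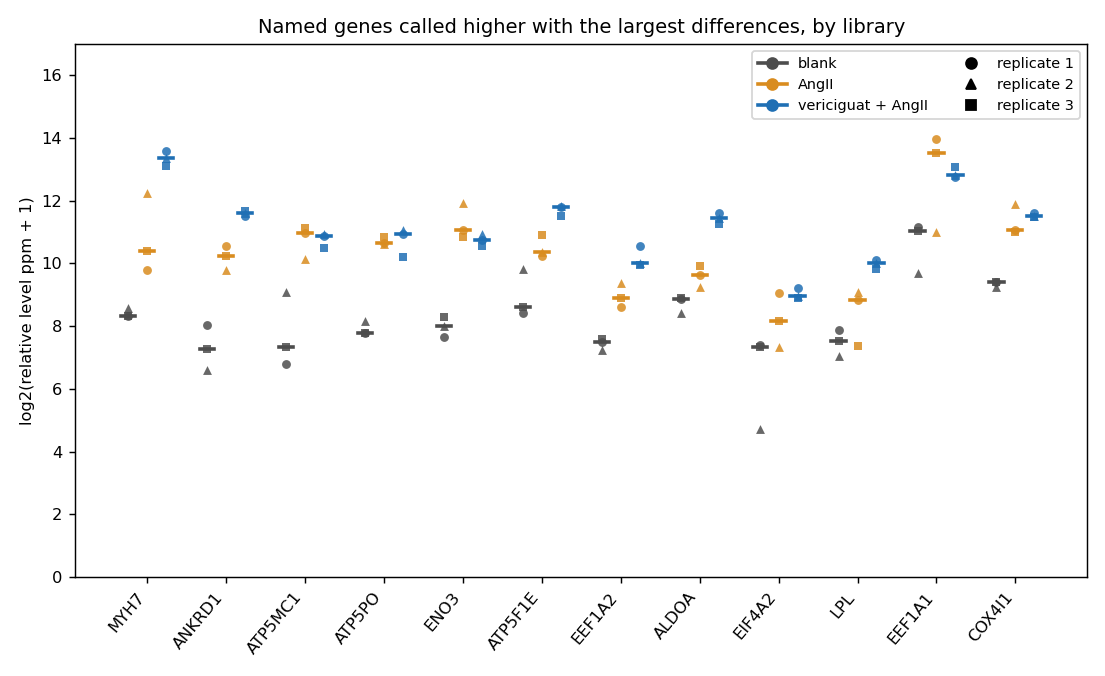
Relative level (ppm) of the 12 named genes called higher with the largest differences, as log2(level + 1), in each library of the blank (grey), AngII (orange) and vericiguat + AngII (blue) groups; circles, triangles and squares are replicates 1, 2 and 3 and the line is the group median. Treated values lie above all blank values for each gene, most widely for MYH7 (log2 difference 4.95), while the AngII libraries scatter more.

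The genes of cardiac calcium handling could hardly be tested, since most did not reach the minimum in the blank group. Of 25 on the list, 18 were in the table by symbol, 8 of those stood at 0 in all blank libraries, and only PLN was kept. PLN codes for phospholamban, the inhibitor of the calcium pump of the sarcoplasmic reticulum and a target of cGMP-dependent protein kinase. It stood at 264, 1482 and 841 ppm in blank and at 3255, 1825 and 2314 in treatment. The groups did not overlap, but the blank values spread widely, and the log2 difference of 1.79 (standard error 0.63) missed the threshold with an adjusted p of 0.0665 from limma. Without the second blank library it was 2.34 (adjusted p = 7.31e-05 from limma). The summed level of the 18 genes was 540, 1604 and 1041 ppm in blank and 5888, 3854 and 4319 in treatment. Among those not kept, ATP2A2 stood at 92.9, 39.6 and 80.1 ppm in blank and at 794, 516 and 467 in treatment. CASQ2 stood at 35.1, 42.05 and 20.5 and at 607, 581 and 552. The rest were higher without overlap as well, except HCN4, which was at most 0.134 ppm in treatment. NPPA, the gene of the atrial natriuretic peptide, was listed at 0 in all blank libraries and was at most 1.43 ppm in the treated ones.

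Nuclear-encoded oxidative phosphorylation genes were mostly higher in the treatment group as well. No subunit encoded in the mitochondrial genome was among those listed by symbol. Of 96 genes on the list, 21 were listed by symbol and 13 kept, and 8 of these were called higher and 0 lower, with a median log2 difference of 1.88. The share called higher was 14.2% over all kept genes and 25.2% over the named ones. The 8 are 6 parts of the ATP synthase or its inhibitor (ATP5MC1, ATP5PO, ATP5F1E, ATP5MJ, ATP5IF1 and ATP5ME), UQCRQ of complex III and COX4I1 of complex IV. Without the third blank library 7 were called, and with quantile normalization 6. The summed level of the 21 genes ran from 10254 to 11875 ppm in the blank group and from 28293 to 36872 in the treatment group. With AngII alone it ran from 25308 to 31331 ppm.

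COX4I1 codes for a nuclear-encoded subunit of cytochrome c oxidase, the last enzyme of the respiratory chain. It had 680, 613.5 and 683 ppm in blank and 3132, 2936 and 2831 in treatment. Both groups were tight and did not overlap, with a log2 difference of 2.17 (standard error 0.17, adjusted p = 0.000387 from limma). ATP5PO, part of the stalk of the ATP synthase, stood at 219, 286 and 220 ppm in blank and at 1953, 2138 and 1180 in treatment (log2 difference 2.82, adjusted p = 0.000857 from limma). ATP5MC1 codes for the rotating membrane ring of the same enzyme. Its blank levels were 110, 548 and 161 ppm and its treated levels 1881, 1979 and 1447, which gave the largest difference of the list that was called (3.03, standard error 0.59, adjusted p = 0.00833 from limma). The second blank library was the high one here, unlike for most genes.

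The smaller differences were those of ATP5IF1 (1.04) and ATP5ME (1.03), and neither held with LOC100353654 left out. The other 5 kept genes did not pass. SDHB, of complex II and the citrate cycle, was listed at 0 in the second blank library, at 132 and 163 ppm in the other blank libraries and at 475, 480 and 405 in the treated libraries. ATP5PD (log2 difference 0.91, adjusted p = 0.0344 from limma) fell short of the size asked for, COX6A1 had 0.77, ATP5F1C 0.14 and ATP5PF -0.06. Of the citrate cycle, IDH3G, a regulatory subunit of isocitrate dehydrogenase, was the only other kept gene. It rose from 170, 131 and 168.5 ppm to 504, 477 and 433 (log2 difference 1.59, adjusted p = 0.00287 from limma).

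Of 5 kept glycolysis genes of 10 listed, 3 were higher (ENO3, ALDOA and LDHB) and 0 lower, beside 14.2% higher over all kept genes and 25.2% over the named ones. On the list of muscle energy transfer, 9 of 33 genes were listed and 4 kept, with 3 higher (ENO3, LDHB and LPL), 0 lower, CKB not called and a median log2 difference of 2.07. ENO3, the muscle form of enolase, stood at 202, 256 and 314 ppm in blank and at 1723, 1968 and 1502 in treatment, with no overlap (log2 difference 2.76, adjusted p = 0.000521 from limma). ALDOA, the aldolase of muscle and red cells, stood at 465, 343 and 471 ppm in blank and at 3132, 2790 and 2465 in treatment (log2 difference 2.72, adjusted p = 0.000412 from limma). LDHB, the lactate dehydrogenase subunit that prevails in heart, had 354, 779 and 446 ppm in blank and 2049, 1660 and 1078 in treatment. Its log2 difference was 1.63 (adjusted p = 0.0171 from limma) and it was not called without the third blank library (adjusted p = 0.0636 from limma).

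LPL, the lipase that frees fatty acids from lipoproteins at the vessel wall of muscle and fat, stood at 232.5, 131 and 183 ppm in blank and at 1093, 1035 and 907 in treatment (log2 difference 2.50, adjusted p = 0.00107 from limma). The housekeeping enzyme GAPDH, used by the study as a reference, had 5243, 4616 and 4847 ppm in blank and 9057, 9651 and 8318 in treatment. These groups did not overlap either, but the log2 difference of 0.88 (adjusted p = 0.00382 from limma) was below 1. PKM, the pyruvate kinase of most non-liver cells, had a log2 difference of -0.14, and CKB, the brain form of creatine kinase, one of -0.57 (adjusted p = 0.842 and adjusted p = 0.49 from limma).

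Of the genes of translation, 12 were kept of 20 listed, with 7 higher, 0 lower and a median log2 difference of 1.16. Over all kept genes 14.2% were called higher, and over the named ones 25.2%. EEF1A2 is the form of elongation factor 1 alpha that muscle and nerve cells use in place of EEF1A1. It stood at 181, 150 and 191 ppm in blank and at 1514, 1044 and 989 in treatment (log2 difference 2.74, adjusted p = 0.000571 from limma). EEF1A1, the widespread form, stood at 2287, 831.5 and 2093 ppm in blank and at 6979, 7296 and 8633 in treatment (log2 difference 2.26, adjusted p = 0.00559 from limma). Both rose, and EEF1A1 kept the higher level in every library. EIF4A2, an RNA helicase of initiation, had a log2 difference of 2.53 (adjusted p = 0.0347 from limma), with the second blank library far below the others at 25.4 ppm against 166 and 162.

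The ribosomal proteins called higher were RPL5 (log2 difference 1.65), RPL10 (1.34) and RPL35A (1.24), and EEF1G, another elongation factor subunit, had 1.08. RPS20, RPS29, RPS7, RPL18 and TPT1 were not called, at log2 differences from -0.35 to 0.82. With LOC100353654 left out or with quantile normalization, 4 of the 12 remained called higher.

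CRYAB, a small heat shock protein that guards desmin and is abundant in heart muscle, was the only stress gene called higher. It stood at 2212, 2392 and 2253 ppm in blank and at 8224, 9257 and 6339 in treatment (log2 difference 1.78, standard error 0.19, adjusted p = 0.000853 from limma). The blank values lay within a narrow range well below the treated ones. FTL, the light chain of the iron store ferritin, was the only one called lower, from 6511, 3774 and 6626 ppm to 1782, 1296 and 1774 (log2 difference -1.77, adjusted p = 0.00385 from limma). FTL was the named gene with the second-highest mean level in the blank group. Of the other 4 kept genes, CALR, GPX1 and PPIA had log2 differences of 1.34, 1.40 and 0.59, and P4HB had -0.81.

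No kept fibroblast or matrix gene was called higher. Of 60 on the list, 20 were listed by symbol and 7 kept, with 0 higher, 1 lower and a median log2 difference of -0.80. The gene that fell was TIMP1, an inhibitor of matrix metalloproteinases that activated fibroblasts secrete. It stood at 1714, 102 and 1304 ppm in blank and at 30.3, 30.8 and 32.0 in treatment. The treated values were nearly equal and below all blank values, of which the second was by far the lowest. The log2 difference was -4.26 (standard error 1.04, adjusted p = 0.0194 from limma), and without the third blank library it was -3.72 with an adjusted p of 0.0691 from limma.

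The other 6 were CCN2 (log2 difference -1.91), P4HB (-0.81), MGP (-0.80), BGN (-0.69), LUM (-0.11) and DCN (0.27). CCN2, a matricellular growth factor raised in fibrosis, stood at 625, 98.2 and 535 ppm in blank and at 98.3, 57.2 and 108 in treatment, so the second blank library lay among the treated ones (adjusted p = 0.0897 from limma). DCN, LUM and BGN code for small proteoglycans that bind collagen, and their groups overlapped. MGP, an inhibitor of matrix calcification, had 3712, 357 and 2563 ppm in blank and 952, 783 and 871 in treatment. The count changed with the blank libraries. Without the second 5 of the 7 genes were called lower, and without the third 0 were. The summed level of the 20 listed genes was 9288, 1476 and 7236 ppm in blank and 3425, 2610 and 2984 in treatment. The treated sums lay between that of the second blank library and those of the first and the third. Genes not kept went both ways. TIMP3 stood at 55.2, 0 and 0 ppm in blank and at 232, 90.8 and 149 in treatment, and MMP14, COL8A1 and MMP9 were higher without overlap as well. CD44 was lower without overlap, from 30.2, 19.1 and 30.2 ppm to 10.6, 9.48 and 9.71.

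As a check of the label, the only collagen I or III gene in the table by symbol, COL1A2, was not kept. It stood at 55.9, 16.6 and 57.4 ppm in blank, at 42.6, 46.8 and 41.7 in treatment and at 486, 26.3 and 115.5 with AngII alone, and FN1, the gene of fibronectin, stood at 118, 6.36 and 107 and at 34.9, 29.3 and 44.4. COL1A1, COL3A1, SMAD2, SMAD3 and PRKG2 are not in the table by symbol. MYH7 exceeded COL1A2 in each of the 6 blank and treated libraries on this scale, which is per length. FN1 was below MYH7 in each of them as well. Kept genes of the fibroblast list lay the other way in part of the blank group. In the first and the third blank library DCN, MGP, TIMP1, CCN2, P4HB and LUM were above MYH7, and BGN was below it. DCN stood there at 1171 and 1082 ppm and MYH7 at 318.5 and 317. In the second blank library and in every treated library all of these genes were below MYH7.

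The markers of smooth muscle and myofibroblasts gave no common direction. Of 39 genes, 11 were listed and 6 kept, with DES the only one higher, 0 lower and a median log2 difference of -0.15. ACTA2, the alpha smooth muscle actin by which the study followed myofibroblasts, stood at 624, 58.1 and 495 ppm in blank and at 474, 402 and 676 in treatment. The groups overlapped, and the log2 difference of 0.94 (standard error 0.89, adjusted p = 0.449 from limma) turned to -0.14 without the second blank library. MYH11, the smooth muscle myosin, stood at 1069, 47.6 and 808 ppm in blank and at 228, 149 and 288 in treatment (log2 difference -0.70, adjusted p = 0.674 from limma), and without the second blank library it was called at -2.12 (adjusted p = 5.78e-06 from limma). TPM2 and CALD1, of the same contractile apparatus, had -0.37 and -0.40, and ACTB, the study's protein reference, had 0.07.

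**Figure D4:**
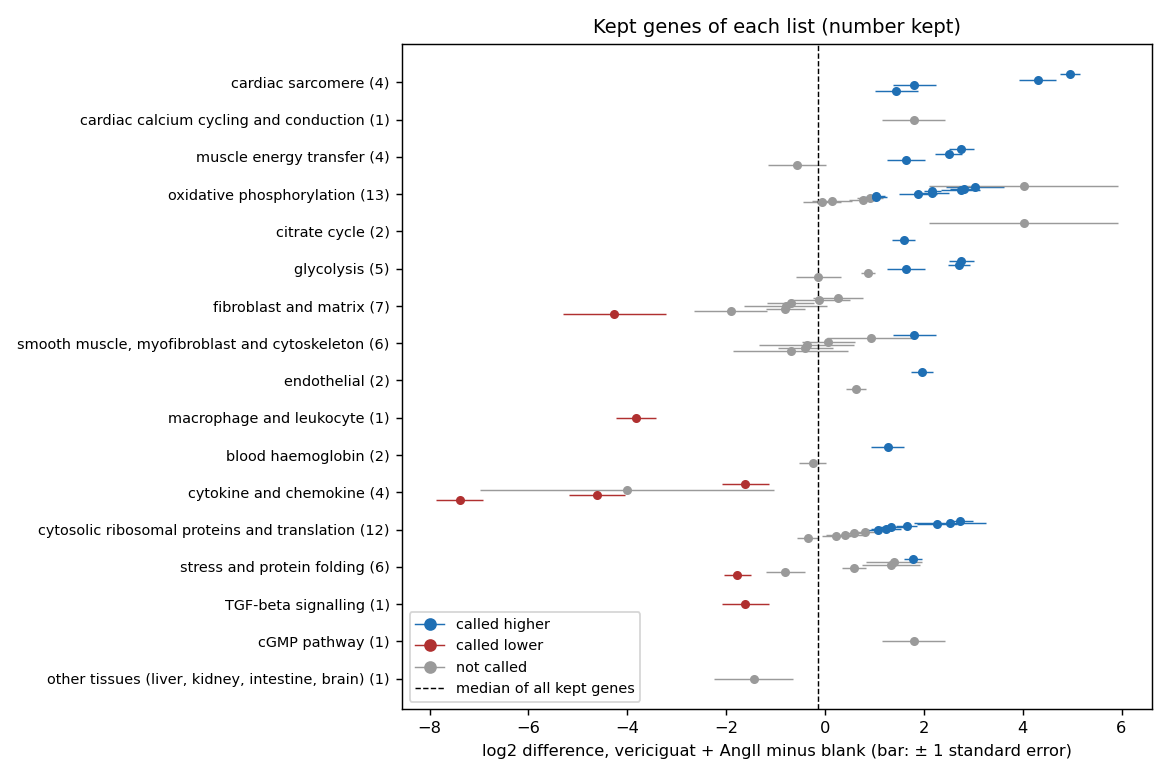
Log2 differences (vericiguat + AngII minus blank, x axis) of the kept genes of each list with at least 1 kept gene, with bars of 1 standard error; blue is called higher, red called lower and grey not called, and the dashed line is the median of all kept genes (-0.14). All 4 sarcomere genes and 8 of 13 oxidative phosphorylation genes are blue to the right of the line, and 3 of 4 cytokine genes are red to its left.

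Endothelial genes were represented by 2 kept members of 11 listed. CAV1, the coat protein of caveolae in endothelium and in fibroblasts, stood at 197, 193 and 245 ppm in blank and at 781, 773 and 918 in treatment (log2 difference 1.96, adjusted p = 0.00113 from limma). AQP1, the water channel of capillaries and red cells, stood at 2679, 1713 and 2317 and at 3346, 3355 and 3495, without overlap but with a log2 difference of 0.63 (adjusted p = 0.0558 from limma). KDR, a receptor that defines endothelium, was listed at 0 in all blank libraries and at 111, 136 and 161 ppm in the treated ones, and was not kept. VWF, which endothelium stores and secretes, was not kept either and stood at 31.9, 14.9 and 27.8 ppm in blank and at 119, 113 and 109 in treatment. Others of the 9 genes not kept lay the other way. SELP stood at 153, 35.7 and 136 ppm in blank and at 2.97, 0.566 and 0.789 in treatment, and EDN1, the gene of the vasoconstrictor endothelin 1, at 82.9, 19.1 and 46.6 and at 10.8, 8.44 and 13.3. SELE and VCAM1, adhesion molecules of activated endothelium, were lower in treatment than in the first and the third blank library but were listed at 0 in the second.

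Haemoglobin transcripts were abundant in every library. HBA, the alpha chain, was the named gene with the highest mean level in both groups, at 28283, 38034 and 28772 ppm in blank and 18090, 27571 and 37138 in treatment. These groups overlapped (log2 difference -0.25, adjusted p = 0.515 from limma). HBB2, a beta chain, was called higher, from 3600, 4537 and 3571 ppm to 5587, 13017 and 11175 (log2 difference 1.27, standard error 0.33, adjusted p = 0.025 from limma). The HBB2 call was lost without the third blank library (adjusted p = 0.081 from limma) and under median centring, quantile normalization and the removal of LOC100353654. The 2 chains share much sequence with their gene copies, so how reads were split among copies is uncertain.

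Of the leukocyte list, 9 of 29 genes were listed and only S100A9, a calcium-binding protein of neutrophils and monocytes, was kept. It stood at 161, 192 and 236 ppm in blank and at 12.03, 11.4 and 15.1 in treatment, with a wide gap between the groups (log2 difference -3.83, standard error 0.41, adjusted p = 0.000882 from limma). The other listed genes of that list, among them CD14 and CYBB, did not reach the minimum, and CD3E, CD4, TLR2 and CYBB were listed at 0 in all blank libraries. The summed level of the 9 genes was 322, 238 and 299 ppm in blank and 121.5, 116 and 165.5 in treatment. Genes not kept went both ways. RLA-DR-ALPHA stood at 7.21, 0 and 10.5 ppm in blank and at 53.9, 53.3 and 90.0 in treatment, and TLR4 was higher as well. CD3E, CD4, TLR2 and CYBB were above 0 in every treated library, at low levels. CD14 was lower, from 91.1, 41.8 and 51.3 ppm to 22.7, 14.9 and 27.3, and the groups of LGALS3 overlapped.

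The few cytokine genes that passed the minimum had the lowest median difference of the lists with a kept gene. They could pass only with a sizeable share in blank, and 12 of the 27 listed stood at 0 in all blank libraries. The median therefore describes the kept genes and not the list. Of 51 cytokine and acute-phase genes, 27 were listed and 4 kept, with 3 lower (GRO-A, CCL2 and TGFB1), 0 higher and a median log2 difference of -4.31. GRO-A, a chemokine that attracts neutrophils, stood at 4578, 1452 and 3865 ppm in blank and at 14.6, 15.8 and 19.8 in treatment. It ranked 7 among the named kept genes of the blank group by mean level, and all treated libraries were far below all blank ones. The log2 difference of -7.39 (standard error 0.47, adjusted p = 0.000283 from limma) is a 168-fold lower share. GRO-A was the only named gene called lower in the deposited FPKM without rescaling as well. There the groups overlapped, at 57.1, 5.248 and 29.9 in blank and 5.148, 5.457 and 6.199 in treatment. CCL2, which attracts monocytes, stood at 304, 130 and 318 ppm in blank and at 7.80, 6.16 and 12.7 in treatment (log2 difference -4.61, adjusted p = 0.0015 from limma).

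HP, the gene of the acute-phase protein haptoglobin, was listed at 0 in the second blank library, at 2656 and 1713 ppm in the first and the third, and at 19.4, 9.16 and 4.34 in the treated libraries. It was not called (adjusted p = 0.34 from limma), and was called at a log2 difference of -7.69 without the second blank library (adjusted p = 2.93e-09 from limma). The summed level of the 27 genes was 8736, 1809 and 6879 ppm in blank and 702, 741 and 917 in treatment. Most of the treated sum came from 1 gene that was not kept and lay the other way. TNFSF10, the death-receptor ligand TRAIL, stood at 6.73, 0 and 14.7 ppm in blank and at 501, 538 and 679 in treatment. TGFB1, the cytokine TGF-beta 1 that drives myofibroblast formation, was the only kept gene of the 7 listed members of its pathway. It had 102, 57.3 and 131 ppm in blank and 24.1, 30.8 and 33.7 in treatment, without overlap. The log2 difference of -1.61 (standard error 0.47, adjusted p = 0.0371 from limma) passed the threshold. It was 0.77 after quantile normalization, and without the third blank library the adjusted p was 0.122 from limma. Members of this pathway that were not kept did not share a direction. TGFB2 and TGFBR2 were listed at 0 in all blank libraries. In treatment TGFB2 stood at 11.8, 12.17 and 17.04 ppm and TGFBR2 at 23.52, 8.774 and 19.26. MSTN was higher as well, at low levels. INHBA was lower in treatment than in the first and the third blank library but was listed at 0 in the second. The groups of BMP2 and BMP4 overlapped.

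**Figure D5:**
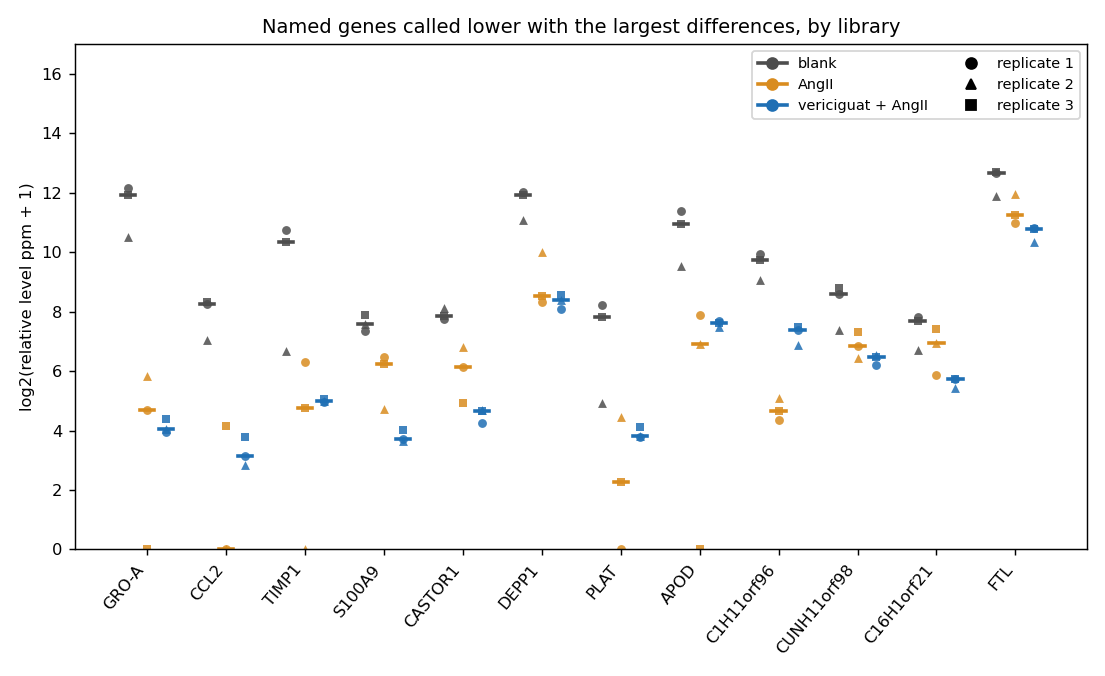
Relative level (ppm), as log2(level + 1), of the 12 named genes called lower with the largest differences, in each library of the blank (grey), AngII (orange) and vericiguat + AngII (blue) groups; symbols are replicates and the line is the group median. Treated values lie below all blank values for each gene, the second blank library (triangle) is low for TIMP1 and PLAT, and points on the axis are libraries listed at 0.

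Several other named genes with no place in these lists fell, and by the rule on size they include DEPP1, CASTOR1, APOD, PLAT, C1H11orf96, CUNH11orf98 and C16H1orf21. DEPP1, a gene switched on by FOXO factors and progesterone, stood at 4198, 2146 and 3841 ppm in blank and at 273, 334 and 380 in treatment (log2 difference -3.32, adjusted p = 0.000571 from limma). CASTOR1, the arginine sensor of the mTORC1 pathway, stood at 215, 275 and 232 ppm in blank and at 18.2, 24.9 and 24.2 in treatment. Its blank values were close together and far above the treated ones (log2 difference -3.37, a 10.3-fold lower share, adjusted p = 0.000643 from limma). APOD, a lipid-binding protein that rises in resting fibroblasts, stood at 2663, 745.5 and 1970 ppm in blank and at 203, 179 and 195 in treatment (log2 difference -3.03, adjusted p = 0.00382 from limma).

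PLAT codes for the tissue plasminogen activator, the protease that starts fibrinolysis. It had 294, 29.6 and 223 ppm in blank and 12.7, 13.0 and 16.5 in treatment (log2 difference -3.08, adjusted p = 0.0392 from limma), and without the third blank library it was not called (adjusted p = 0.128 from limma). The uncharacterised C1H11orf96 stood at 989, 530.5 and 843.5 ppm in blank and at 165, 116 and 177 in treatment (log2 difference -2.34, adjusted p = 0.00254 from limma). CUNH11orf98 and C16H1orf21 fell by 1.85 and 1.77 on the log2 scale, and neither was called without the third blank library.

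The 8 named genes that were called lower but fall outside the lists and the rule on size were looked up after their values were seen. THBD, the thrombomodulin of the vessel wall, stood at 497, 365 and 400 ppm in blank and at 106, 110 and 167 in treatment (log2 difference -1.74, adjusted p = 0.00426 from limma). GPX3, the secreted glutathione peroxidase, stood at 2855, 2137 and 2753 ppm in blank and at 928, 852 and 981 in treatment (log2 difference -1.48, adjusted p = 0.0021 from limma). CAVIN3, a coat protein of caveolae, had a log2 difference of -1.58, opposite in sign to that of CAV1, while CAVIN1 had -0.34 and was not called. The rest were BCL2L1, UBE2Q2, CA4, CUNH19orf53 and RA_M006_JSM7BED4F, with log2 differences from -1.75 to -1.12.

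Those called higher outside the lists and the rule, also looked up afterwards, were 9. HINT1, an enzyme that splits purine phosphoramidates, stood at 97.2, 116 and 171 ppm in blank and at 414, 435.5 and 502 in treatment (log2 difference 1.84, adjusted p = 0.0037 from limma). SELENOP, the selenium carrier of plasma, had a log2 difference of 1.75, and RLA-A3, a class I histocompatibility gene under its rabbit name, one of 1.13. BSG, the partner protein of lactate transporters, stood at 848, 700 and 787 ppm in blank and at 1745, 1630 and 1824 in treatment (log2 difference 1.16, adjusted p = 0.00384 from limma). The others were NEDD8, PCBP1, SLC9A3R2, NIPSNAP2 and CALM2, from 1.06 to 1.498.

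Of the remaining lists, no gene was kept for the cell cycle (5 listed) or the angiotensin system (4 listed), and AGTR2 was listed at 0 in every blank and treated library. For the cGMP pathway, 6 of 21 genes were listed and PLN alone was kept. PRKG1, the cGMP-dependent protein kinase, was not kept and stood at 3.77, 0 and 1.42 ppm in blank and at 5.82, 4.38 and 5.55 in treatment. GUCY1A1, of soluble guanylate cyclase, stood at 8.82, 17.4 and 6.46 ppm in blank and at 38.65, 30.2 and 37.1 in treatment. GUCY1B1, of the same enzyme, stood at 11.1, 16.6 and 12.15 and at 41.0, 30.3 and 42.4. NOS1 was higher as well at low levels, and the groups of NOS3 overlapped. Of the markers of liver, kidney, intestine and brain, 9 of 31 were listed and only APOE, which macrophages make too, was kept, with a log2 difference of -1.44 (adjusted p = 0.214 from limma). ALB, APOA1, SLC12A1 and SI were listed at 0 in all blank and all treated libraries, but so was the ribosomal protein gene RPL39, which every cell uses. SLC5A2, a glucose transporter of the kidney tubule, stood at 3.69, 0 and 10.7 ppm in blank and at 25.3, 25.5 and 31.5 in treatment, and TF, the transferrin gene, at 7.69, 0 and 11.2 and at 40.4, 41.3 and 30.2.

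The libraries treated with AngII alone are set beside these genes without a test, since both comparisons would share the blank libraries. MYH7 stood at 889, 4836 and 1352 ppm with AngII alone, between the blank and the treated values in each library. ANKRD1 stood at 1507, 877 and 1209 ppm, again between them. ENO3 stood at 2123, 3938 and 1834 ppm, within or above the treated range. The level of CRYAB with AngII alone, at 2886, 3796 and 1985 ppm, lay above the blank range in 2 libraries and below it in 1.

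For 20 of the 36 named genes called higher, every AngII library lay above every blank library, and for 1 (RLA-A3) below. For 14 of the 21 called lower, every AngII library lay below every blank library, and for 0 above. Of the 21 named genes called lower, 7 were listed at 0 in at least 1 AngII library, and of the 36 called higher, 0 were. Of all 839 kept genes, 822, 820 and 792 were above 0 in the AngII libraries. GRO-A stood at 24.6, 56.5 and 0 ppm, CCL2 at 0, 0 and 16.6 and DEPP1 at 318, 1021 and 368 with AngII alone. GPX3 was lower with AngII alone (266, 289 and 181 ppm) than in the treatment group. ACTA2 stood at 97.6, 0 and 7.46 ppm with AngII alone, below every treated library and, in 2 of 3 libraries, below every blank library.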

How the data were processed

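RNA-seq of 9 libraries, 3 per group, was taken from 1 table, with groups assigned from the sample labels. The authors deposited FPKM values, made after removal of poor reads, comparison with a reference genome and addition of predicted coding transcripts. The submitters' processing notes name FastQC 0.11.9, Trimmomatic 0.39, HISAT2 2.2.1, featureCounts 2.0.1 and OryCun2.0. FPKM holds no counts, so depth is unknown; ratios between the lowest values gave competing peaks (for the second blank library 3.48 or 1.16 times the first) and settled nothing.

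Relative level was FPKM divided by its library's sum without KEF51 rows and ADORA1-2, times 1000000. Log2(relative level + 1) was fitted with limma 3.58.1 (R 4.3.3), using lmFit, eBayes with trend, 6 libraries and no covariate, two-sided, adjusted by Benjamini-Hochberg over 839 genes. The pseudocount understates differences of low genes. The members and gene lists were chosen with earlier results of these data known; no list was tested as a set. Named genes are kept list genes, the 12 called higher and 12 called lower with the largest non-overlapping differences, and genes the study measured; list symbols were matched without regard to case. Exact permutation of 3 against 3 gives at least 0.1.

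Alternatives covered pseudocount, minimum, scaling, libraries in the fit, replicate number as a block, library weights, trend, fold threshold and each library left out. LOC numbers were not given gene names.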

Additional observations from a re-analysis of the deposited data

How the results depend on the processing

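The calls of single named genes were the same in 1456 of the comparisons with alternatives, stronger in 64, weaker in 179 and reversed in 35. A change of sign counted as reversed only where either fit called the gene. Genes called in neither fit counted as the same whatever their sign, as ACTA2 did (log2 difference 0.94, and -0.14 without blank replicate 2). Counts are given as called (higher, lower), with named higher and lower after them; the values reported were 297 (119, 178), named 36 and 21. With the minimum set on the relative level, 8385 genes were tested: 1114 (829, 285), named 121 higher, median 0.97. With the minimum in all 3 libraries of each group, 236 were tested: 101 (46, 55), named 18 and 9, and 17 higher and 2 lower in the lists. With no minimum, 17843 were tested: 6130 (5651, 479), named 580 and 47, median 0.97. Rescaling over the kept genes left 110 lower, 11 of them named. All 9 libraries in a single fit left 104 lower, 11 named. Library weights, for which the estimation did not reach its tolerance, gave 302 lower, 45 named and 16 in the lists. Leaving out LOC100353654 gave 79 higher and 299 lower, named 21 and 39, and 10 lower in the lists. The cause of these shifts was not tested beyond the number of genes and libraries in each fit.

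Without rescaling, 819 genes were called (815 higher, 4 lower), named 139 and 1, in the lists 61 and 1, median 4.57. The log2 difference then was 2.37 for APOD, 3.18 APOE, 5.32 ATP5PF, 2.94 BCL2L1, 3.62 BGN, 2.87 C16H1orf21, 2.96 C1H11orf96, 3.60 CA4, 3.79 CALD1, 1.63 CASTOR1, 3.61 CAVIN3, 0.42 CCL2, 2.91 CCN2, 3.78 CKB, 3.08 CUNH11orf98, 4.23 CUNH19orf53, 2.19 DEPP1, 3.76 FTL, 4.01 GPX3, 5.33 HBA, 4.69 LUM, 4.48 MGP, 3.88 MYH11, 4.35 P4HB, 5.00 PKM, 1.24 PLAT, 3.12 RA_M006_JSM7BED4F, 5.00 RPL18, 1.12 S100A9, 2.62 TGFB1, 3.39 THBD, 0.71 TIMP1, 4.27 TPM2 and 3.15 UBE2Q2, each below 0 on the relative scale. TGFB1 was 0.77 after quantile normalization.

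With each library left out in turn, 180 to 436 genes were called, 78 to 122 higher and 102 to 314 lower, with 24 to 35 named higher, 11 to 46 named lower, 19 to 28 list genes higher and 4 to 15 lower, and medians from -0.54 to 0.07. The count of lower genes was 314 (46 named, 15 in the lists) without blank replicate 2, 114 (11) without blank replicate 3, and 112 (11), 102 (11) and 124 (12) without treatment replicates 1, 2 and 3. Without treatment replicates 1 and 2 the calls numbered 197 and 180, and without the latter 78 were higher.

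The replicate numbers are shared by the groups, but the deviations of same-numbered libraries correlated at 0.01, 0.18 and 0.11, so they were not taken as pairs. With the replicate number as a block, 268 genes were called (111 higher, 157 lower), 32 named higher and 20 named lower, 26 and 6 in the lists, and the median was -0.14.

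Depth is unknown, so no counting error can be given, and a gene at or near 0 in the blank libraries could not be a member whatever its level after treatment. Only 125 of the 143 names equal a rat symbol, lists cover few of their genes, and counts over 1 to 13 kept genes describe those genes alone.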
